A study of Mus musculus with 2 samples.

Results

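The collagen gene family was taken as every gene symbol made of Col, a number, the letter a and a number, which gave 44 of the 27999 genes of the deposited table. They comprised 11 fibrillar chains, 8 chains of basement membranes (types IV, XV and XVIII), 6 beaded chains (type VI) and 19 others. The values were read in 2 droplet single-cell libraries of adult mouse bone marrow, one of LepR-Cre;tdTomato+ stromal cells (LepR_tdT) and one of endothelial cells (EC). Both were labelled as C57Bl/6JCrl mice of 3 to 4 months that carry LepR-Cre and LSL-tdTomato. LepR-Cre switches on the red protein tdTomato in cells that have expressed the leptin receptor gene Lepr, and in all their descendants, so the mark is a history and not a present state. The marrow was digested with collagenase and dispase before staining. The sample numbers in the protocol overlap, so its tamoxifen step cannot be placed with certainty, and neither the sort gates nor the number of animals is given in the sources used here. Each population was 1 library, so no comparison had a replicate and none was tested.

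Collagens are built from 3 chains that wind into a triple helix. Fibrillar collagens form the ropes of bone, skin and tendon, type IV collagen forms the sheet under endothelium, and type VI collagen forms beaded filaments around cells, with one chain each of Col6a1, Col6a2 and Col6a3 in its classical form. Type I collagen usually joins a pair of Col1a1 chains to 1 Col1a2 chain and is the main protein of bone matrix.

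The matrix held 18139911 UMIs (unique molecular identifiers, each a counted molecule) in 4250 LepR_tdT cells, with a median of 4347 per cell. It held 14111524 UMIs in 4536 EC cells, with a median of 3084.5. The design text aimed at 2000 to 3000 cells a sample, and 42 barcode sequences occurred in both libraries. Lepr stood at 608 CPM (counts scaled to 1000000 UMIs) in the stromal library and 16.4 in the endothelial one, the endothelial adhesion gene Cdh5 at 9.48 and 793, and tdTomato at 17.97 and 1.70, so these genes went with the labels. Cells were clustered without collagen genes and without genes of collagen synthesis, binding and breakdown, and clusters were named from markers. In LepR_tdT, 2946 cells were stromal-like (Cxcl12, Gas6, Adipoq), 251 osteolineage-like (Ibsp, Bglap, Bglap2; Ibsp was also at 7269 CPM in stromal-like cells, against 4968), 17 pericyte-like (Rgs5, Acta2, Tagln), 59 endothelial-like, 19 erythroid-like and 24 granulocyte-like. A cluster of 259 cells led by Cxcl5, Fndc1, Hsd11b1 and Kit stayed unnamed and is called the Cxcl5 cluster here (cluster 5 in the plots). In EC, 3447 cells were sinusoidal-like (Stab2, Fcgr2b, Dnase1l3), the thin-walled marrow vessels, and 246 arterial-like (Ly6c1, Ly6a, Gja4), with 84 erythroid-like and 40 granulocyte-like cells. Of 2 shallow unnamed clusters led by mitochondrial genes, one held 638 LepR_tdT and 2 EC cells and the other 37 and 717.

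Levels are CPM of the summed UMIs of a class, with exact Poisson 95% intervals in square brackets. A conditional exact binomial interval stands beside each ratio. Percentages of cells have exact Clopper-Pearson limits. All of these cover counting error only and not variation between animals or preparations. Since 1 molecule is counted once whatever its length, levels were not divided by gene length. A member was called measured with at least 20 UMIs in the pair of classes compared and called higher where its level was 2-fold or more that of the other class. A fold against 0 UMIs is a lower bound, set against a floor of 3 UMIs over the class.

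Collagen genes gave 71666 UMIs in all cells. Of the 44 members, 29 had at least 20 UMIs, 12 had 1 to 19, and 3 had none: Col10a1 of hypertrophic cartilage, Col17a1 of epithelial attachment and Col19a1. LepR_tdT cells held UMIs of 41 members and EC cells of 29. Collagens took 0.355% of the UMIs of LepR_tdT cells (interval 0.353% to 0.358%) and 0.0512% of those of EC cells (0.05001% to 0.05238%). Both libraries thus read the family, with a wider set and a larger share in the stromal library.

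Between the libraries, 29 members were measured. Of these, 23 were at least 2-fold higher in LepR_tdT, where 21.2% of the 13456 measured genes were, and 1 was at least 2-fold higher in EC, where 17.9% of genes were. The members' median log2 ratio was 3.75, against 0.08 over all measured genes. All 10 measured fibrillar chains were higher in LepR_tdT, with a median log2 ratio of 7.15. Basement membrane chains differed least, with 1 of 5 higher in LepR_tdT, none higher in EC and a median of -0.01. Of 4 measured type VI chains, 3 were higher in LepR_tdT and Col6a3 was higher in EC.

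**Figure D1:**
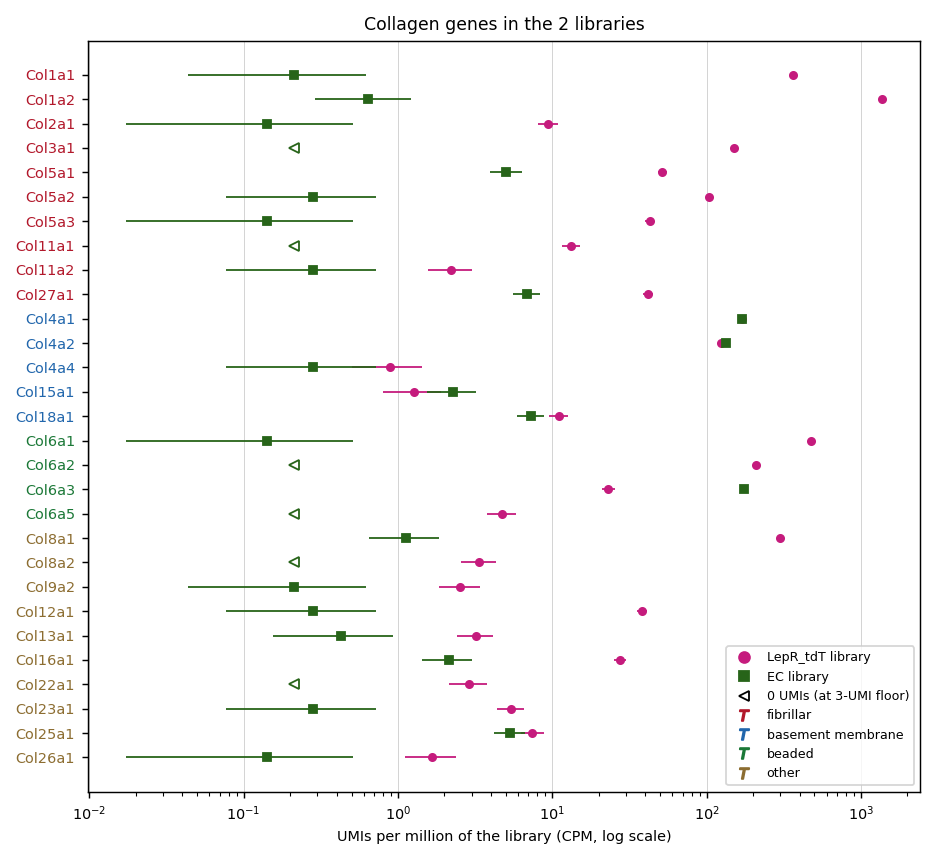
Level of each measured collagen gene in the LepR_tdT library (circles) and the EC library (squares), as CPM on a log axis, with exact Poisson 95% intervals; open triangles stand for 0 UMIs and lie at the 3-UMI floor, and label colours give the group. Col4a1 and Col4a2 nearly coincide between the libraries, Col6a3 lies to the right in EC (174 against 23.0 CPM), and the fibrillar chains are all to the right in LepR_tdT.

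Type I collagen led the stromal library. Col1a2 (chr6:4504814-4541544) stood at 1364 CPM in LepR_tdT and 0.638 in EC, from 24743 and 9 UMIs. Col1a1 (chr11:94936224-94953042) stood at 362 and 0.213, from 6565 and 3 UMIs. In LepR_tdT Col1a2 was 2139-fold (1126 to 4678) and Col1a1 1702-fold (582.3 to 8257) higher, and the 2 libraries were far apart for both. Col3a1, the type III chain of pliable tissues, had 2734 UMIs (151 CPM) in LepR_tdT and 0 in EC, at least 709-fold higher. The type V chains, which set the width of type I fibrils, followed: Col5a2 at 104 against 0.283 CPM, Col5a1 at 51.6 against 5.03 and Col5a3 at 42.7 against 0.142. The smallest fold among the fibrillar chains was that of Col27a1, at 41.6 against 6.87 CPM (6.05-fold, 4.89 to 7.55).

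The libraries pool several kinds of cell, and fewer cells of a kind cannot be told apart from less RNA per cell in them. Stromal-like cells of LepR_tdT were therefore set against the 3693 endothelial-like cells of EC. Of 25 measured members, 19 were higher by 2-fold or more in stromal-like cells, against 21.4% of 12859 genes, and 3 were higher in endothelial-like cells (Col6a3, Col15a1 and Col25a1), against 17.9% of genes. The stromal and endothelial levels were 1256 and 0.622 CPM for Col1a2, 125 and 0.155 for Col1a1, 86.2 and 0 for Col3a1, and 305 and 1.24 for Col8a1, a short-chain network collagen. The 59 endothelial-like cells inside LepR_tdT gave the same comparison within 1 preparation. They held 11 UMIs of Col1a2 (56.1 CPM, 22.4-fold below stromal-like cells, 12.5 to 44.9) and none of Col3a1. Empty droplets of LepR_tdT held Col1a2 at 1013 CPM, and the free RNA share estimated from haemoglobin and granulocyte genes was 1.02% in those 59 cells and 2.54% in stromal-like cells. The part of free RNA in the low stromal collagens of these cells was not tested further. Granulocyte-like cells of LepR_tdT, which should lack collagen, had 0.111% of their UMIs from collagens, against 0.315% in stromal-like cells. They held 12 UMIs of Col3a1 among 281806, against 1214 among 14081919 in stromal-like cells.

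**Figure D2:**
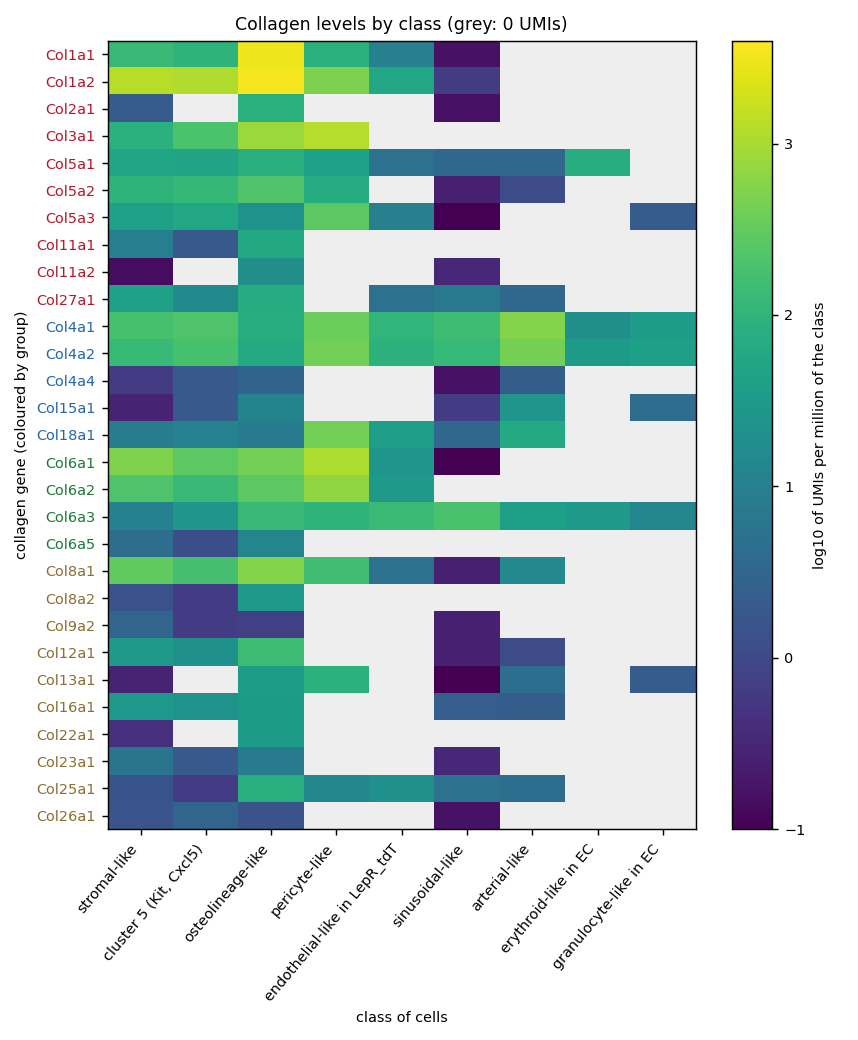
Heat map of the 29 collagen genes with at least 20 UMIs in both libraries together (rows, label colour by group) over 9 classes of cells (columns), coloured by log10 of CPM of the class; grey marks 0 UMIs. Fibrillar rows are brighter in the stromal-like and osteolineage-like columns than in the sinusoidal-like and arterial-like ones, apart from Col11a2 in stromal-like cells (0.142 CPM). The endothelial-like column of LepR_tdT holds Col1a2 at 56.1 CPM. Col4a1, Col4a2 and Col6a3 are present in all 9 columns.

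The ratio of Col1a1 to Col1a2 UMIs differed between mesenchymal classes. Stromal-like cells counted 1762 UMIs of Col1a1 and 17687 of Col1a2, a ratio of 0.0996 (0.0948 to 0.105). Osteolineage-like cells counted 4122 and 4506, a ratio of 0.915 (0.877 to 0.954). The Cxcl5 cluster lay with stromal-like cells at 0.0873 (0.0734 to 0.103), and pericyte-like cells had 6 and 34 UMIs (0.176, 0.0606 to 0.425). In stromal-like cells Col1a1 had a UMI in 923 of 2946 cells, while Col1a2 had one in 2876. Free RNA of LepR_tdT lay between stromal-like and osteolineage-like cells, at a ratio of 0.348. How well the molecules of each gene are counted was not tested. The ratios are therefore compared between classes and do not show which chain is scarcer within a class.

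After each cell was thinned to 1000 UMIs, Col1a2 was seen in 69.4% (67.7 to 71.0) of stromal-like cells and 82.3% (77.0 to 86.9) of osteolineage-like cells. Col1a1 was seen in 9.92% (8.86 to 11.1) and 63.5% (57.1 to 69.4) of the same cells. Thinning left out 13 stromal-like and 2 osteolineage-like cells. Unthinned, at median depths of 4636 and 4957 UMIs, the Col1a1 shares were 31.3% and 88.0%. In granulocyte-like cells of LepR_tdT, which should lack collagen, 6 of the 24 thinned cells carried Col1a2 (25.0%, 9.77 to 46.7) and 16.7% (4.74 to 37.4) carried Col1a1, at a median depth of 9280. The Col1a1 share in stromal-like cells lay within the interval of these 24 cells and that in osteolineage-like cells above it. By level, Col1a1 was at 125 CPM in stromal-like cells and 353 CPM in empty droplets, whose RNA was estimated at 2.54% of stromal-like UMIs. Granulocyte-like cells of LepR_tdT held 42 UMIs of Col1a1 among 281806, against 1762 among 14081919 in stromal-like cells. Their level was thus not below the stromal-like one. The part of free RNA in the stromal-like Col1a1 level was not tested.

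The RefSeq promoter window of Col1a2 (GRCm38.p6, chr6:4505368-4505667, plus strand, 250 bases before to 50 after the start) is shown because this chain gave the most collagen UMIs. Capitals mark the matches to GGGCGG and CCAAT on either strand.
Col1a2: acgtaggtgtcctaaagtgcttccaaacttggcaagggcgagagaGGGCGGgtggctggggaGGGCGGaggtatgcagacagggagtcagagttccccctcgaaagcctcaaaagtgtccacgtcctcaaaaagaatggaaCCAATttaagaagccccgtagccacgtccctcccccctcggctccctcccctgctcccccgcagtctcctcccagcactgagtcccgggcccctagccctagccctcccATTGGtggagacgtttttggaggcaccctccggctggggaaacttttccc
It held 2 GC boxes (GGGCGG), 2 CCAAT boxes and no TATA box (TATAAA). Of the 44 members 35 had a window in the table, and Col1a1, Col2a1, Col4a3, Col5a2, Col9a3, Col12a1, Col14a1, Col22a1 and Col26a1 had none. A GC box was found in 22 of the 35 (62.9%) and in 35.7% of all 32851 windows of that length, a CCAAT box in 13 (37.1%) and 37.4%, and a TATA box in 5 (14.3%) and 13.6%. The 35 members had 38 windows and a match in any window of a member counted, whereas the other share is by window. The collagen windows had a median of 59.8% G or C, against 52.7% over all windows, and the GC box shares were not adjusted for it. The motifs do not overlap each other in the Col1a2 window. A match describes letters only.

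Osteolineage-like cells held the largest share of collagen among the classes measured, with 0.981% (0.965% to 0.998%) of their UMIs against 0.315% (0.312% to 0.318%) in stromal-like cells. Fibrillar chains made up 79.9% of their collagen UMIs against 54.3%, and basement membrane chains 1.64% against 10.02%. Of 27 members measured, 14 were at least 2-fold higher in osteolineage-like cells, against 5.85% of 11762 genes, and 2 in stromal-like cells, against 8.88%. The members' median log2 ratio was 1.14, against -0.08 over all genes. By group, 7 of 10 fibrillar, 2 of 4 type VI and 5 of 10 other chains were higher in osteolineage-like cells. None of the 3 measured basement membrane chains was.

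**Figure D3:**
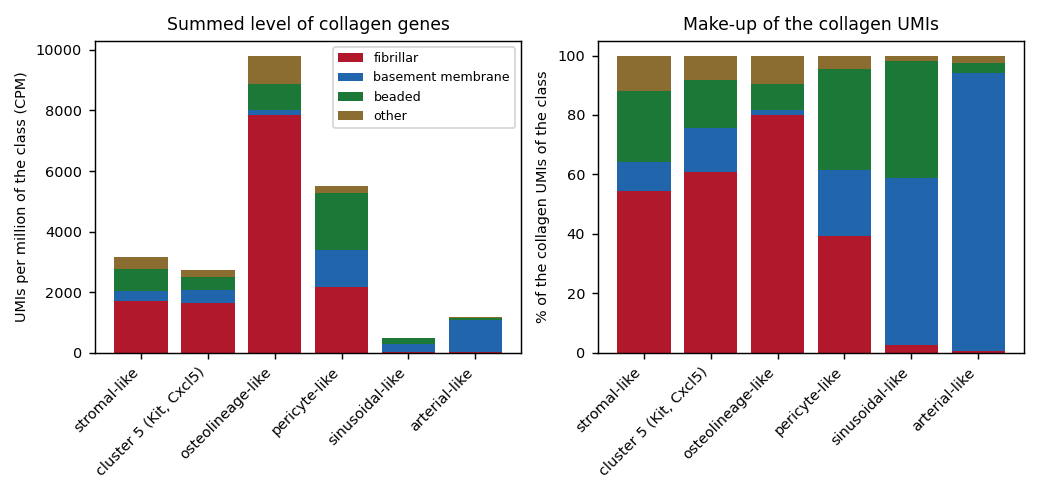
Summed level of the collagen genes in 6 classes (left, CPM, bars from 0) and the share of each group in the collagen UMIs of the class (right, percent). The osteolineage-like bar is the tallest and mostly fibrillar (79.9%), and the arterial-like collagen is mostly of basement membrane chains (93.4%).

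Col1a1 stood at 3101 CPM [3007 to 3197] in osteolineage-like and 125 [119 to 131] in stromal-like cells, 24.8-fold (23.4 to 26.2) higher. Col1a2 stood at 3390 [3292 to 3491] and 1256 [1238 to 1275], 2.70-fold (2.61 to 2.79) higher, so the intervals did not overlap for either chain. Col3a1 was at 795 and 86.2 CPM (9.22-fold, 8.49 to 10.03), and Col5a2 at 214 and 97.2 (2.20-fold, 1.93 to 2.50). The other type V chains did not pass 2-fold: Col5a1 was at 79.0 and 50.3 CPM and Col5a3 at 22.6 and 42.2.

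Among chains also known from cartilage, those of types II and XI were higher in osteolineage-like cells and those of type IX were not. Col2a1, the main chain of cartilage, stood at 87.3 CPM against 2.13 (41.0-fold, 27.2 to 63.4). Col11a1, which forms mixed fibrils with it, stood at 62.4 against 9.66 (6.47-fold, 4.86 to 8.56), and Col11a2 at 18.8 against 0.142, from 25 and 2 UMIs (132-fold, 33.0 to 1154). Of the type IX chains, Col9a2 had 1 UMI in osteolineage-like and 44 in stromal-like cells, and Col9a1 and Col9a3 had 0 in osteolineage-like against 1 and 2 in stromal-like cells. The type II and XI counts sat in few cells: 33 of 251 carried Col2a1, and 7 carried Col11a2, with 1 cell holding 40.0% of its UMIs. Of the 7 chondrocyte markers in the table, 5 had UMIs in osteolineage-like cells, with a summed level of 342 CPM against 54.0 in stromal-like cells, and Acan and Hapln1 were at 0. The part of chondrocyte RNA in these values was not tested.

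Among the other groups, the transmembrane chains Col13a1 and Col25a1 and the fibril-associated chain Col22a1 had the largest ratios. Col13a1 was at 35.4 against 0.284 CPM (124-fold, 45.5 to 476), Col22a1 at 31.6 against 0.426 (74.2-fold, 31.4 to 213) and Col25a1 at 76.7 against 1.56 (49.1-fold, 30.8 to 81.8). Of the 251 osteolineage-like cells only 19 carried Col13a1, 24 Col22a1 and 65 Col25a1. Col12a1, which binds the surface of type I fibrils, was at 151 against 30.8 CPM (4.91-fold, 4.13 to 5.81). Col8a2, with UMIs in 26 of the 251 cells, was at 29.3 against 1.42 (20.7-fold, 11.8 to 37.4). Its partner Col8a1 was at 568 against 305 CPM, 1.86-fold (1.72 to 2.01) and so short of 2-fold. Col4a1 was 2.46-fold (2.01 to 3.05) higher in stromal-like cells, at 180 against 73.0 CPM, and Col4a2 1.95-fold (1.57 to 2.46), at 126 against 64.7. Col9a2, on the UMIs given above, was counted higher in stromal-like cells with an interval that holds no difference (4.15-fold, 0.707 to 168).

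The osteolineage-like collagen was uneven between cells. The 25 cells with the most Col1a1 held 70.7% of its UMIs, and 1 cell held 664 of the 4122. For Col1a2 the share of the top 25 cells was 52.1% and for Col3a1 75.0%, while Col6a1 (41.9%) and Col8a1 (40.7%) were spread more evenly. In stromal-like cells the top 295 cells held 59.7% of Col1a1 and 23.2% of Col1a2, from 1762 and 17687 UMIs. Such a share rises as UMIs get fewer, so these 2 shares are not compared as unevenness. The summed osteolineage-like levels are thus weighted towards few cells. Markers of fibroblasts summed to 2979 CPM in osteolineage-like and 755 in stromal-like cells, nearly all from Dcn, and their part in the fibrillar levels was not tested.

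**Figure D4:**
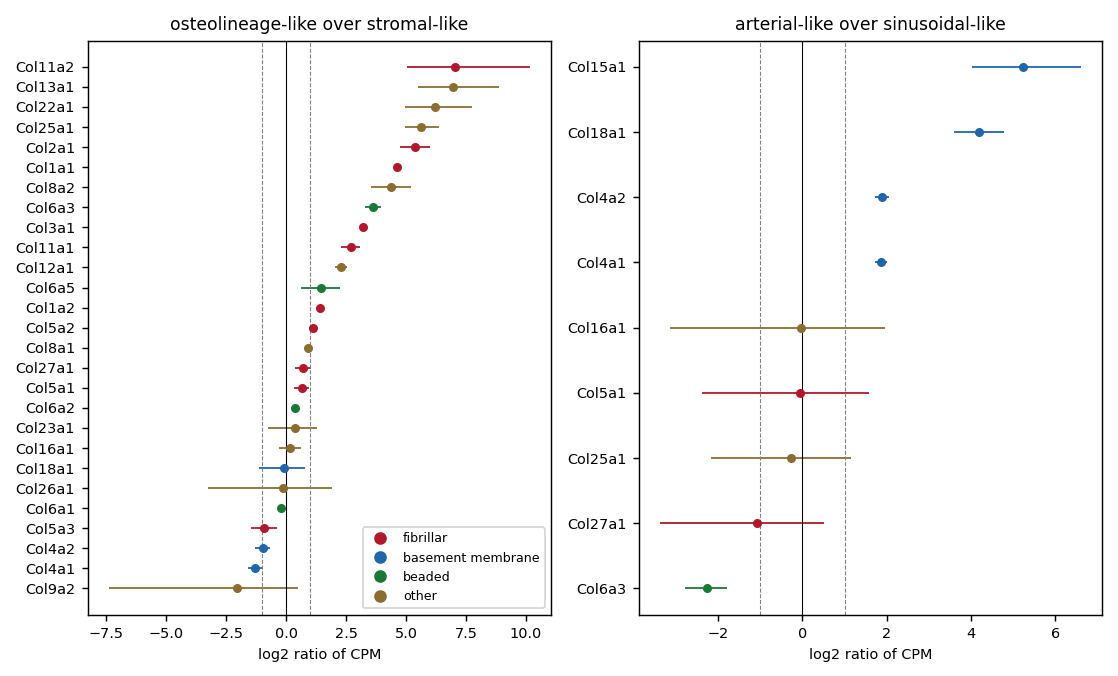
Log2 ratio of CPM for each measured collagen gene between osteolineage-like and stromal-like cells (left) and between arterial-like and sinusoidal-like cells (right), with 95% counting intervals, coloured by group; dashed lines mark 2-fold. On the right the 4 basement membrane chains lie above 2-fold and Col6a3 lies at -2.26.

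Collagens took 0.271% (0.263% to 0.280%) of the UMIs of the Cxcl5 cluster, below the share in stromal-like cells. Col3a1 was 2.29-fold (2.02 to 2.60) and Col6a3 2.62-fold (1.82 to 3.71) higher there, at 198 against 86.2 CPM and 27.8 against 10.6. Col27a1 was 2.64-fold (1.77 to 4.11) lower, at 16.1 against 42.6 CPM, and Col11a1 4.99-fold (1.67 to 24.5) lower on 3 UMIs. Col23a1 was 3.04-fold (1.01 to 15.1) lower, also on 3 UMIs, and Col6a5, Col8a2, Col9a2 and Col25a1 were more than 2-fold lower on 1 or 2 UMIs each, with intervals that hold no difference. Short of 2-fold, Col6a1 was 1.89-fold (1.71 to 2.09) lower, at 272 against 514 CPM, and Col8a1 1.74-fold (1.53 to 1.97), at 176 against 305. Col1a2, at 1117 CPM, was 0.889 times (0.846 to 0.934) and Col5a1, at 48.4 CPM, 0.963 times (0.749 to 1.22) the stromal-like level.

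At a finer clustering stromal-like cells formed clusters of 1218, 935, 612 and 70 cells with collagen shares of 0.304%, 0.328%, 0.303% and 0.315%. Their Col1a2 levels ranged from 1197 to 1329 CPM, so the main chain was nearly even. Col8a1 was less even, at 356 CPM in the cluster of 1218 cells and 189 in that of 935. Col6a5, a chain that can take the place of Col6a3, was at 11.9 CPM in the cluster of 935 cells (53 UMIs) and at 1.38 and 0.343 in those of 1218 and 612. Col1a1 was at 163 CPM in the cluster of 935 cells and 86.9 in that of 1218.

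Type IV collagen was the one large class that both libraries shared. Col4a1 (chr8:11198423-11312826, minus strand) stood at 170 CPM in LepR_tdT and 170 in EC, from 3078 and 2404 UMIs, a ratio of 0.996 (0.944 to 1.05). Col4a2 (chr8:11312805-11449287, plus strand) stood at 124 and 133 CPM, a ratio of 0.936 (0.880 to 0.995). By class, Col4a1 ran from 73.0 CPM [59.2 to 89.0] in osteolineage-like cells through 151 [144 to 158] in sinusoidal-like, 180 [173 to 187] in stromal-like and 356 [231 to 526] in pericyte-like cells to 551 [502 to 602] in arterial-like cells. The 59 endothelial-like cells of LepR_tdT held it at 107 CPM [66.3 to 164], and the Cxcl5 cluster at 212 [189 to 236]. Neighbours in the order of the other classes had intervals that did not overlap, apart from the wide pericyte-like one, whose upper end reached into the arterial-like range. Col4a2 followed at 64.7, 119, 126, 413 and 438 CPM, with overlapping intervals for sinusoidal-like and stromal-like cells and for pericyte-like and arterial-like cells. Erythroid-like and granulocyte-like cells of EC held Col4a1 at 19.6 and 32.9 CPM, below each of these classes. Granulocyte-like cells of LepR_tdT held 17 UMIs of it among 281806, near the rate of osteolineage-like cells (97 among 1329106). Empty droplets held it at 136 CPM in LepR_tdT and 133 in EC. The part of free RNA in the osteolineage-like Col4a1 level was not tested.

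The ratio of Col4a1 to Col4a2 UMIs was 1.42 (1.34 to 1.51) in stromal-like, 1.28 (1.19 to 1.37) in sinusoidal-like, 1.26 (1.10 to 1.44) in arterial-like and 1.13 (0.835 to 1.53) in osteolineage-like cells. It was 1.17 (0.996 to 1.38) in the Cxcl5 cluster, 0.862 (0.484 to 1.52) in pericyte-like cells and 1.17 (0.592 to 2.32) in the endothelial-like cells of LepR_tdT. Outside these it was 1.98 (1.37 to 2.90) in the shallow EC cluster and 0.600 (0.179 to 1.82) in erythroid-like cells of EC, from 6 and 10 UMIs. The 2 genes lie head to head. In the RefSeq windows the starts are 21 bases apart on opposite strands, so the windows share 78 bases (GRCm38.p6, chr8:11312777-11312854). Both are shown because the 2 genes share their start region, with the shared bases in capitals, each strand written 5′ to 3′.
Col4a1: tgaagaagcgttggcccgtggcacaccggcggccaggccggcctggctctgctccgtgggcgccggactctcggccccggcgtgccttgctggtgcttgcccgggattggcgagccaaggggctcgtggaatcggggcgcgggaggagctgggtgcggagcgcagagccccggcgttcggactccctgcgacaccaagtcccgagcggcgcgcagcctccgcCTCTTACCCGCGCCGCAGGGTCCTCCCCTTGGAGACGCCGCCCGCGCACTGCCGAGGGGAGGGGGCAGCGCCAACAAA
Col4a2: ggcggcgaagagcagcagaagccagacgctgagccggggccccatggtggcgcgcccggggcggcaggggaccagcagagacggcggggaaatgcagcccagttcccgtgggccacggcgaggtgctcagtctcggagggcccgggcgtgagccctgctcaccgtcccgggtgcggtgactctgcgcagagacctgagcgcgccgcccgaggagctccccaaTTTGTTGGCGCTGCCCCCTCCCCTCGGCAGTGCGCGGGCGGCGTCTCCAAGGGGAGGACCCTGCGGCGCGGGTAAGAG
The Col4a1 window (chr8:11312777-11313076) had 74.0% G or C and the Col4a2 window (chr8:11312555-11312854) 73.7%, against a median of 52.7% over all windows. Neither held a TATA box. The shared stretch holds 1 GC box. 

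The other type IV chains were nearly absent. Col4a4 had 16 UMIs in LepR_tdT and 4 in EC, and Col4a3, Col4a5 and Col4a6 had at most 3 in a library.

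Arterial-like cells devoted more of their RNA to collagen than sinusoidal-like cells, with 0.116% (0.109% to 0.123%) of UMIs against 0.0489% (0.0476% to 0.0502%). Basement membrane chains were 93.4% of it, against 56.1%. Of 9 measured members, 4 were at least 2-fold higher in arterial-like cells, against 8.73% of 11107 genes. They were the 4 measured basement membrane chains. Another 2 were higher in sinusoidal-like cells, against 7.06% of genes. The median log2 ratio of the 9 members was -0.02, against 0.14 over all genes.

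Col4a1 was 3.64-fold (3.29 to 4.03) and Col4a2 3.70-fold (3.29 to 4.14) higher in arterial-like cells, at 551 against 151 CPM and 438 against 119. Col18a1, the source of endostatin, was at 65.4 against 3.58 CPM (18.2-fold, 12.1 to 27.8), and Col15a1, its close relative, at 25.2 against 0.667 on 22 and 8 UMIs (37.8-fold, 16.2 to 98.3). Col6a3 went the other way, at 40.1 against 192 CPM (4.79-fold, 3.43 to 6.89). Col27a1, at 3.44 against 7.25 CPM, rested on 3 UMIs and had an interval that holds no difference (2.11-fold, 0.698 to 10.4). After thinning to 1000 UMIs, which left out 23 arterial-like and 52 sinusoidal-like cells, Col4a1 was seen in 38.6% (32.1 to 45.3) of arterial-like and 13.4% (12.2 to 14.6) of sinusoidal-like cells. In granulocyte-like cells of EC it was seen in 2.50% (0.0633 to 13.2). Unthinned, the shares were 73.2%, 35.8% and 20.0%, at median depths of 3222.5, 3405 and 10640 UMIs.

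Pericytes also make these chains, so their markers were read beside the comparison. Of 9 pericyte or smooth muscle markers, 3 had UMIs in arterial-like cells and the same number in sinusoidal-like cells, with summed levels of 142 and 66.1 CPM, mostly from the adhesion gene Mcam. Acta2, Myh11, Notch3, Cspg4, Higd1b and Ndufa4l2 were at 0 in both. The 17 pericyte-like cells of LepR_tdT held Col18a1 at 413 CPM [277 to 593], with Acta2 at 8349 CPM. The 8 sinusoidal markers summed to 2412 CPM in arterial-like cells against 5569 in sinusoidal-like cells, so the separation of the 2 classes is partial in RNA. Sinusoidal-like cells came in 2 clusters, of which one (1449 cells) was led by immediate early genes such as Atf3 and Klf4. Between these clusters Col4a1 was at 152 and 151 CPM, Col4a2 at 118 and 119 and Col6a3 at 183 and 200.

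The type VI chains were split between the libraries. Col6a1 (chr10:76708792-76726168) had 8561 UMIs (472 CPM) in LepR_tdT and 2 UMIs (0.142 CPM) in EC, a 3330-fold difference (922 to 27501). Col6a2, on the same chromosome (chr10:76595762-76623630), had 3794 UMIs (209 CPM) and 0, at least 984-fold. Col6a3 (chr1:90765923-90843971) had 418 UMIs (23.0 CPM) and 2458 (174 CPM), 7.56-fold (6.81 to 8.41) higher in EC. The EC library thus held the mRNA of 1 chain with almost none of its partners.

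**Figure D5:**
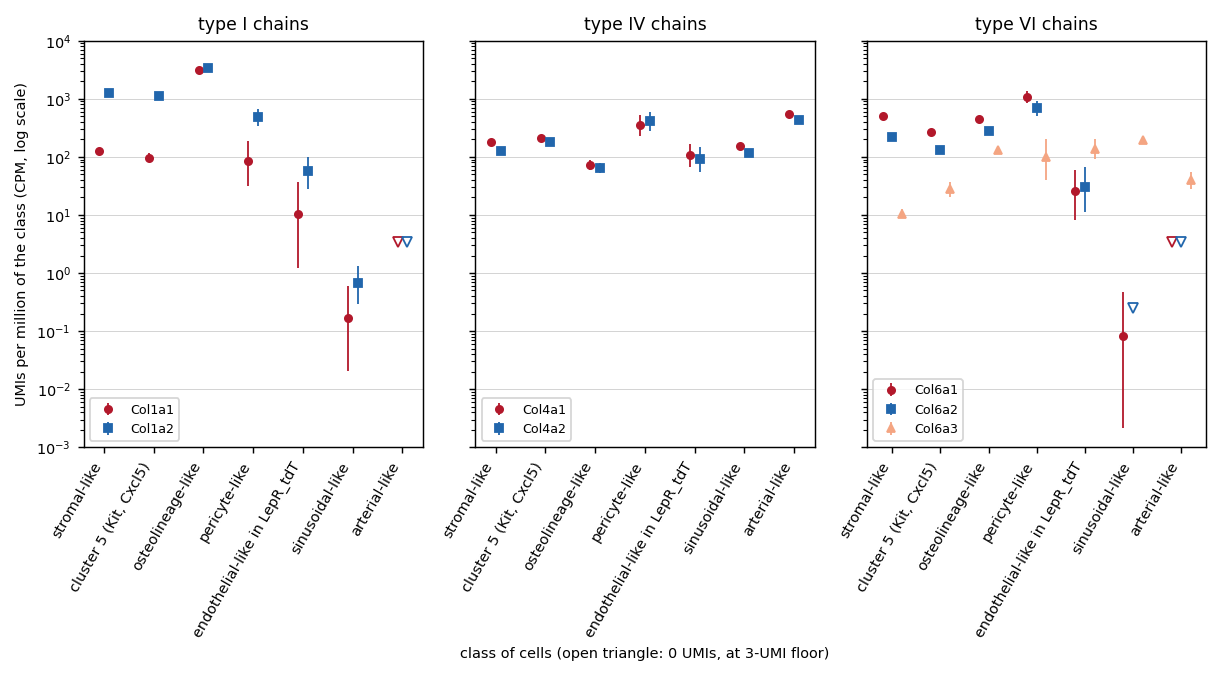
Levels of the type I, type IV and type VI chains in 7 classes of cells, as CPM on a log axis with exact Poisson 95% intervals; open triangles mark 0 UMIs at the 3-UMI floor. Col4a1 and Col4a2 run side by side, whereas Col6a3 is below Col6a1 in stromal-like cells (10.6 against 514) and above it in sinusoidal-like cells (192 against 0.0833).

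By class, Col6a1 stood at 514 CPM [502 to 526] in stromal-like, 443 [408 to 480] in osteolineage-like, 272 [247 to 299] in the Cxcl5 cluster and 1083 [853 to 1355] in pericyte-like cells. Sinusoidal-like cells had 1 UMI of it (0.0833 CPM) and arterial-like cells 0. Col6a2 kept to this order except that osteolineage-like cells (280 CPM) lay above stromal-like cells (218). Granulocyte-like cells of LepR_tdT, which should lack collagen, held 37 UMIs of Col6a1 and 16 of Col6a2 among 281806. Their summed type VI level was 202 CPM. It was 747 CPM in stromal-like cells, 865 in osteolineage-like cells and 432 in the Cxcl5 cluster. The part of free RNA in these type VI levels was not tested. Col6a3 stood at 10.6 CPM [8.95 to 12.4] in stromal-like, 27.8 in the Cxcl5 cluster, 129 [111 to 150] in osteolineage-like, 99.7 [40.1 to 205] in pericyte-like, 40.1 [28.0 to 55.8] in arterial-like and 192 [185 to 200] in sinusoidal-like cells. Its level in osteolineage-like cells was 12.2-fold (9.76 to 15.3) that of stromal-like cells. Osteolineage-like cells gave 41.1% of its UMIs in LepR_tdT and 7.33% of all UMIs there.

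Col6a3 was also higher in the endothelial-like cells of the other preparation, where its partners were not near 0. The 59 endothelial-like cells of LepR_tdT had Col6a3 at 138 CPM [90.7 to 200], 13.01-fold (8.30 to 19.7) above the stromal-like cells of the same library, with Col6a1 at 25.5 CPM and Col6a2 at 30.6, from 5 and 6 UMIs against 27 of Col6a3. Free RNA of that library held 845, 339 and 65 UMIs of Col6a1, Col6a2 and Col6a3, the reverse order. Free RNA of EC held Col6a3 at 154 CPM and Col6a1 at 11.1. In sinusoidal-like cells thinned to 1000 UMIs, 17.5% (16.3 to 18.8) carried Col6a3 and 0 of 3395 carried Col6a1 (interval up to 0.109%). In erythroid-like cells of EC, Col6a3 was at 29.5 CPM and, among the 38 thinned cells, in 5.26% (0.644 to 17.7), and in granulocyte-like cells at 13.2 CPM and in 0 of 40 (up to 8.81%). Unthinned, 44.9% of sinusoidal-like cells carried Col6a3, and 7.14% of erythroid-like cells did at a median depth of 843 UMIs.

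In stromal-like cells Col6a2 was seen in 22.2% (19.8 to 24.8) of thinned cells with Col6a1 and in 16.0% (14.4 to 17.8) of those without. The ratio of Col6a1 to Col6a2 UMIs was 2.36 (2.26 to 2.46) in stromal-like and 1.58 (1.39 to 1.81) in osteolineage-like cells. The windows of Col6a1 (GRCm38.p6, chr10:76725995-76726294, minus strand) and Col6a3 (chr1:90843922-90844221, minus strand) are given because their levels ran in opposite directions between the libraries. Capitals mark the bases from the start site on.
Col6a1: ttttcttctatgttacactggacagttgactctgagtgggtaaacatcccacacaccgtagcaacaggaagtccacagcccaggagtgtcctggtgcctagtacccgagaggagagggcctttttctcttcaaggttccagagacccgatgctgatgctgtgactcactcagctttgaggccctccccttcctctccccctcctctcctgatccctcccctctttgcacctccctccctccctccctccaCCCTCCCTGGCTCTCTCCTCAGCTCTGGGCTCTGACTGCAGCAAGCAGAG
Col6a3: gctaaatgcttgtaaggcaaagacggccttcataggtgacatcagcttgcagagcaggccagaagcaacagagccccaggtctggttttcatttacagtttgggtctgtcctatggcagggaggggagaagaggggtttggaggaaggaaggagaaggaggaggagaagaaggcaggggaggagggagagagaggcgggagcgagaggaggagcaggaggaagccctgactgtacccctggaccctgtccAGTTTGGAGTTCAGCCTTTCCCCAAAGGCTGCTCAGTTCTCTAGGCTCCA
None of the motifs searched was found in either window, which says only that these letters are not there. Col6a5 had 86 UMIs in LepR_tdT and 0 in EC (4.74 CPM, at least 22.3-fold), and Col6a4 and Col6a6 had 1 UMI each.

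In the EC library the fibrillar chains were low or absent in both vessel classes. Sinusoidal-like and arterial-like cells held no Col3a1, Col5a2 at 0.250 and 1.15 CPM, Col5a1 at 3.58 and 3.44 and Col5a3 at 0.0833 and 0. The 17 pericyte-like cells held Col3a1 at 1211 CPM [967 to 1498] and Col5a3 at 271 [163 to 423], from 85 and 19 UMIs, the highest level of each among the named classes. They held Col5a1 at 42.7, Col5a2 at 71.2 and Col8a1 at 157 CPM, with no UMI of Col2a1, Col12a1 or Col27a1.

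Of the 10 measured chains of the remaining group, 9 were higher in LepR_tdT, beside 21.2% of all measured genes. Col8a1 stood at 300 CPM in LepR_tdT and 1.13 in EC (265-fold, 163 to 464), and 13 of its 16 EC UMIs were in arterial-like cells (14.9 CPM [7.94 to 25.5], against 0.250 in sinusoidal-like cells). Col12a1 was at 38.4 against 0.283 CPM (135-fold, 52.6 to 498) and Col16a1, another fibril-associated chain, at 27.5 against 2.13 (12.9-fold, 8.95 to 19.4). Col25a1 was the exception in this group, at 7.44 against 5.31 CPM (1.40-fold, 1.05 to 1.88). Within LepR_tdT 75.6% of its UMIs came from osteolineage-like cells, and in endothelial-like cells of EC it was 3.48-fold (2.13 to 5.91) above stromal-like cells. Col8a2, Col9a2, Col13a1, Col22a1, Col23a1 and Col26a1 were all between 1.65 and 5.40 CPM in LepR_tdT and at most 0.425 in EC, and the other 9 chains had fewer than 20 UMIs in both libraries together. Osteolineage-like cells gave 47 of the 58 LepR_tdT UMIs of Col13a1, 42 of 52 of Col22a1 and 39 of 61 of Col8a2. They gave 1 of 46 of Col9a2, 10 of 98 of Col23a1 and 2 of 30 of Col26a1.

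The genes that build, bind and cut collagen were read from 4 lists. Of 20 genes of chain folding and modification, all measured, 13 were at least 2-fold higher in LepR_tdT, where 21.2% of all measured genes were, and 2 in EC, where 17.9% were. Creb3l1, a transcription factor of the secretory pathway, was at 40.5 against 0.992 CPM (40.8-fold, 24.2 to 75.1), Fkbp14, a folding enzyme, at 65.4 against 4.89, and Plod2, which hydroxylates lysines of the chain ends, at 33.6 against 5.81. Higher in EC were Plod1, which hydroxylates lysines of the helix, at 130.5 against 25.9 CPM, and the sugar transferase Colgalt2 at 1.28 against 0.496. In stromal-like against endothelial-like cells the counts were 12 and 2 of 19, beside 21.4% and 17.9% of all genes, with P3h1, a prolyl 3-hydroxylase, at 51.7 against 9.87 CPM.

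Of 18 genes of secretion, trimming and cross-linking 13 were measured, and 8 were higher in LepR_tdT and none in EC, beside the same 21.2% and 17.9% of all genes. The cross-linking oxidases Lox and Loxl1 stood at 133 and 314 CPM in LepR_tdT, with 1 and 0 UMIs in EC. Adamts2, which removes the amino-terminal propeptide, was at 581.6 against 0.425 CPM, and Pcolce, which aids removal of the other end, at 835 against 4.82. In stromal-like against endothelial-like cells the counts were again 8 and none of 13, beside 21.4% and 17.9%.

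Of 11 receptors, all measured, 7 were higher in LepR_tdT and 3 in EC, beside 21.2% and 17.9% of all genes, and nothing is read from the 3. The tyrosine kinase receptors Ddr1 and Ddr2 were at 39.9 and 130 CPM against 0.0709 and 0.992, and the integrin chain Itga11 and the uptake receptor Mrc2 at 37.0 and 31.1 CPM against 0 UMIs. Those higher in EC were the adhesion receptor Adgrg1 (129.9 against 4.91 CPM), the integrin chain Itga2 (6.45 against 0.276) and Lair1 (1.42 against 0.386). Between stromal-like and endothelial-like cells 5 and 2 of 8 measured receptors were higher, beside 21.4% and 17.9% of all genes. Of 8 breakdown enzymes, 4 were higher in LepR_tdT and none in EC, beside 21.2% and 17.9%: the collagenase Mmp13 at 592 against 0.0709 CPM, the protease Fap at 185 against 0.283, cathepsin K (Ctsk) at 203 against 0.921 and Mmp2 at 29.7 against 0.567. Among 6 measured between stromal-like and endothelial-like cells 4 were higher in stromal-like cells, beside 21.4% of genes, and Mmp14, at 186 against 116 CPM, did not pass 2-fold.

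Between osteolineage-like and stromal-like cells 5.85% of all measured genes were higher in the former and 8.88% in the latter, and the 4 lists are read beside these shares. Of 18 folding and modification genes only Plod2 was higher, at 117 against 28.5 CPM (4.11-fold, 3.40 to 4.96), a share near that of all genes. Of 13 secretion and cross-linking genes Bmp1, which removes the carboxy-terminal propeptide, was higher (169 against 72.6 CPM) and Loxl2 lower (27.8 against 77.4). Sparc, a collagen-binding matrix protein, was at 6094 against 3261 CPM, 1.87-fold. Of 7 receptors Mrc2 was higher (81.3 against 26.3) and Ddr1 lower (10.5 against 44.95). Of 7 breakdown enzymes 5 were higher and none lower, with Mmp13 at 5301 against 220 CPM (24.1-fold, 23.1 to 25.1), Mmp2 at 246 against 12.8, Fap at 528 against 168, Mmp14 at 429 against 186 and Mmp9 at 9.78 against 0.781.

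Between arterial-like and sinusoidal-like cells 2 and 2 of 17 folding genes passed 2-fold in each direction, near the 8.73% and 7.06% of all genes. The other lists here hold few measured genes, and nothing is read from their counts. The collagen chaperone Serpinh1 was at 688 against 308 CPM (2.23-fold, 2.04 to 2.43), and P4ha2, a prolyl 4-hydroxylase, at 16.1 against 2.33. P3h3, at 11.5 against 31.4, and the channel gene Tmem38b, at 8.03 against 17.3, were lower. Of 6 genes of secretion and cross-linking Loxl2 (18.4 against 53.2 CPM) and Sec24d (9.18 against 22.004), a coat protein of vesicles, were lower, while Sparc was at 6317 against 3614. Of 4 receptors Itga2 was higher in arterial-like cells (18.4 against 5.92 CPM) and none lower, and neither of the 2 measured breakdown enzymes, Mmp14 and Pepd, passed 2-fold.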

How the data were processed

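The deposited matrix holds UMI counts per gene and droplet, and a deposited table names the 4250 LepR_tdT and 4536 EC cells kept by the authors. The submitters' processing notes name the mm10 build, Seurat 2.3.4 and Cell Ranger 2.1.1. UMIs and genes per cell recomputed from the counts equalled the table for every cell. Those cells held 18139911 and 14111524 UMIs, which sets the counting intervals.

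Cells were scaled to 10000 UMIs, log-transformed and clustered (scanpy 1.11.5, leidenalg 0.10.2) on 1571 variable genes and 30 principal components at resolution 0.5, without collagens and the pathway lists. Empty droplets of 1 to 50 UMIs stood for free RNA. Scrublet called 1 and 0 cells and so did not work. Cells of the highest scores (262 and 247) were instead left out as an alternative chosen after seeing the data. Counts were summed per class. The comparison step was checked on simulated data. Members and lists were chosen with earlier results of these data known. Members with at least 20 UMIs in a compared pair were described, with up to 4 pathway genes per list of the most extreme ratio at 20 CPM or more. Colgalt2, Lair1, Mmp9, P4ha2, Tmem38b and Itga2 were named after their values were seen, to complete small counts. Other clusterings, scalings, minimums, folds and thinning depths were tried.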

Additional observations from a re-analysis of the deposited data

How the results depend on the processing

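No collagen turned its direction under any alternative run: of 606 member values under alternatives, 595 kept their direction and side of 2-fold, 10 no longer passed and 1 newly passed. With a minimum of 100 UMIs the collagens higher by 2-fold were 15 in LepR_tdT, 1 in endothelial-like cells, 9 in osteolineage-like cells, 1 in stromal-like against osteolineage-like cells and 1 in sinusoidal-like cells, and the pathway genes 2 in EC, 2 in endothelial-like and 1 in arterial-like cells. With a minimum of 1 UMI, 8 pathway genes were higher in arterial-like cells. At a fold of 4 the collagens were 1 in stromal-like against osteolineage-like, 2 in arterial-like cells and 1 in sinusoidal-like ones, and the pathway genes 3 in EC, 4 in osteolineage-like, 1 in stromal-like against osteolineage-like, 1 in arterial-like cells and, against these, 0 in sinusoidal-like ones. A minimum of 100 UMIs leaves fewer measured genes, a minimum of 1 UMI leaves more, and a fold of 4 is a higher bar. At resolution 1.0, 0 collagens were higher in stromal-like against osteolineage-like cells and 1 in sinusoidal-like cells, and collagen took 0.312% of stromal-like, 0.805% of osteolineage-like and 0.105% of arterial-like UMIs. The classes themselves changed there. Osteolineage-like cells were 343, arterial-like cells of EC 338, and sinusoidal-like cells of EC formed clusters of 1593 and 270. The cluster led by genes such as Atf3 and Klf4 (1377 EC cells) had 2 sinusoidal markers, short of the 3 required, and lost the sinusoidal-like name. The part of these changes in the counts and shares was not tested. Shares of cells moved with depth, unthinned and at 2000 UMIs: Col1a2 97.6% and 88.0%, Col4a1 54.3% and 28.6% and Col6a3 4.34% and 1.91% in stromal-like cells, and Col4a1 35.8% and 24.0% and Col6a3 44.9% and 30.5% in sinusoidal-like cells, where Col1a2 was at 0.232% unthinned. No paired analysis was possible because the labels give no replicate numbers and each group has 1 library. Population and preparation cannot be told apart between the libraries.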

Other observations

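Col5a1 was at 72.0 CPM in the 84 erythroid-like cells of EC, from 22 UMIs. These sat in 11 of the 84 cells, with 6 in 1 cell. Col5a1 was at 3.58 CPM in sinusoidal-like cells, 0 in the 40 granulocyte-like cells and 4.66 in free RNA of EC. Erythroid-like cells of LepR_tdT had 4 UMIs of it (59.5 CPM), where free RNA was at 42.0. The shallow cluster of 638 LepR_tdT cells, led by mitochondrial genes, held Col1a1 at 1057 CPM and Col1a2 at 1477, a ratio of 0.715 (0.635 to 0.805). The ratio was 0.0996 in stromal-like cells, 0.915 in osteolineage-like cells and 0.348 in free RNA of LepR_tdT. This shallow cluster carried 12 stromal markers. At resolution 1.0 a shallow unnamed cluster of 371 LepR_tdT cells carried 5 osteolineage markers. The part of osteolineage RNA in the ratio was not tested. Among the named classes Col18a1 and Col13a1 were highest in the 17 pericyte-like cells, at 413 and 85.5 CPM, from 29 and 6 UMIs.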
